A study of Mus musculus with 20 samples.

Results

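The genes described here carry out cholesterol synthesis, cholesterol export and transport inside the cell, and the sensing of sterols. The list held 35 genes, chosen by name, and a member was any gene whose symbol was paired with a feature of the array annotation. In all, 32 of the 35 genes were measured, on 57 array features, out of 19087 genes with a symbol and a fitted feature. All 57 features had a value on each of the 20 arrays. The expression of Acat2, Nr1h2 and Soat1 was not analysed here, though their promoters enter the sequence counts. The 32 genes were 17 synthesis enzymes, 5 regulators of the sterol-responsive transcription factor SREBP, 4 genes of the liver X receptor (LXR) and cholesterol efflux group, 3 intracellular transport genes and 3 oxysterol enzymes.

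Cells build cholesterol from acetyl-CoA through mevalonate, farnesyl diphosphate, squalene and lanosterol. When sterols in the endoplasmic reticulum are scarce, Scap carries SREBP to the Golgi, where it is cut and released to switch on the synthesis genes, and when they are plentiful the Insig proteins hold Scap back. Oxysterols made from cholesterol activate LXR, which raises the transporters Abca1 and Abcg1 and the carrier Apoe. The central nervous system makes its own cholesterol, since lipoproteins of the blood do not cross its barrier, and phagocytes that clear myelin debris have to dispose of the cholesterol they take up.

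RNA of whole spinal cord from 23 female C57BL/6 mice was compared on two-colour arrays, each pairing 2 animals. Heterozygous mice carrying the GFAP-IkappaBalpha-dn transgene (TG; 12 animals) express a dominant negative inhibitor of NF-kappaB under the astrocyte promoter of Gfap, and their wild type littermates (WT; 11 animals) served as controls. Some mice of both genotypes were naive. The others were killed 10, 17 or 80 days post-induction (dpi) of experimental autoimmune encephalomyelitis (EAE), a model of immune attack on myelin. It was induced with the MOG(35-55) peptide of a myelin protein in complete Freund's adjuvant, together with pertussis toxin. All animals are labelled as 60 days of age, whereas the design text gives 2 to 4 months. TG and WT animals were paired on 3 naive arrays, 4 arrays at 10 dpi, 3 at 17 dpi and 4 at 80 dpi, and 6 other arrays set 2 times of the same genotype against each other, 1 array for each pair. Each group held 3 animals except WT at 17 dpi, where the labels name only animals 1 and 4. The 4 arrays at 80 dpi used TG animal 26 and WT animal 15 on 2 arrays each. A given contrast of times within a genotype therefore had 1 direct array and otherwise rested on links through other groups.

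The deposited values were ratios, read as log2, with no signal level, so neither the tissue nor a cell type could be checked by the level of its markers. The numerator of the ratios is not stated. Ratios were read as TG over WT where the genotypes differed and as EAE over naive where 1 animal was naive. For the pairs of 17 and 80 dpi within a genotype, the first group named in the title was the numerator (17 dpi in WT, 80 dpi in TG). This reading had earlier been preferred for the same data partly because inflammatory genes then rise in EAE, so the direction of inflammatory markers is not independent of it. With every array read instead in the order of its title, 10 members pass at 80 dpi, all of them lower in TG mice, and the median log2 difference at 80 dpi becomes -0.2 for the synthesis enzymes and 0.58 for the LXR and efflux group. The 4 arrays at 80 dpi bear on this reading. TG was in the Cy3 channel on 3 of them and in Cy5 on 1, and the deposited values of Abca1 and Hmgcs1 had the same sign on all 4 arrays. Both genes were among the members with the smallest adjusted p under the reading used. Some other member features, such as a feature of Nsdhl and another of Srebf2, had the opposite sign on the array with TG in Cy5. With the fitted dye effect removed, these features were above 0 on all 4 arrays (0.46 to 0.98 for Nsdhl and 0.15 to 0.47 for Srebf2). That dye effect was itself estimated under the reading used. A shared sign cannot tell TG over WT from WT over TG. Unless stated otherwise, ratios of single arrays below still hold the dye effect, whereas the fitted values allow for it.

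At 17 dpi 1 array, that of TG 3 and WT 4, stood apart, with a standard deviation of its ratios of 1.07. Skeletal muscle genes were high on every array with TG animals 21, 27 or 1-5. Calls without these animals or that array are given beside the main results of each group of members. No such calls were made for the wider gene lists or the cell type markers. Without the 3 TG animals, TG 26 was the only TG animal left at 80 dpi. In whole tissue, fewer cells of a type and less RNA per cell cannot be told apart.

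In TG over WT more members passed at 80 dpi than at the other times. That was not kept without TG animals 21, 27 and 1-5, a fit with TG 26 as the only TG animal of 80 dpi. Over naive more members passed at 17 dpi than at 80 dpi in both genotypes, but the 17 dpi counts stand against high shares of all genes, given below. In WT mice the order turned with array weights (18 at 17 dpi and 23 at 80 dpi). It also turned with arrays scaled to one spread (7 and 15). A member was counted as higher or lower where at least 1 of its features passed an adjusted p of 0.05 in limma's moderated test, adjusted by Benjamini and Hochberg's method over all features of the comparison. In TG over WT at 80 dpi, 15 of the 32 members were higher and 5 lower, against 0.388% and 2.32% of all genes. At 17 dpi 4 members were higher and 7 lower, against 7.17% and 14.0% of all genes, so these counts stand against a high background. In naive mice 0 members passed, with 0% of all genes passing and 0 members at an unadjusted p under 0.05. At 10 dpi 0 members passed either, with 0.0210% of all genes passing and 3 members at an unadjusted p under 0.05.

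Within a genotype, 7 members were higher and 2 lower in WT mice at 17 dpi than in naive WT mice, against 14.0% and 12.4% of all genes. In WT mice at 80 dpi 3 members were higher and 3 lower than in naive WT mice, against 1.73% and 0.210% of all genes. In TG mice at 17 dpi 3 members were higher and 4 lower than in naive TG mice, against 10.2% and 15.3%. In TG mice at 80 dpi 0 members passed, with 0.0419% of all genes passing and 0 members at an unadjusted p under 0.05. TG over WT at 80 dpi and WT at 80 dpi over naive share the WT animals of 80 dpi and come from 1 fit, so they are not independent of each other.

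**Figure D1:**
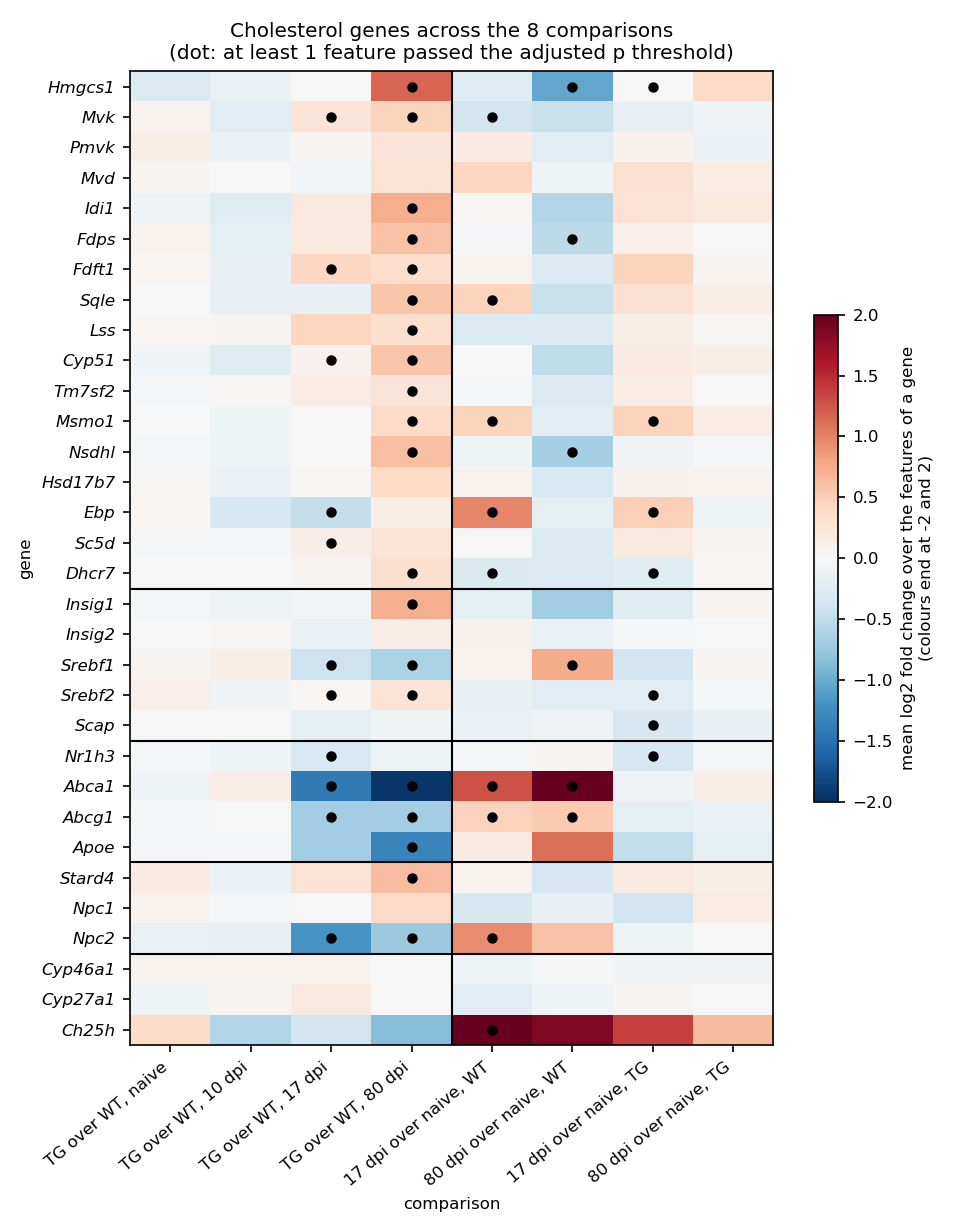
Mean log2 fold change over the features of each of the 32 measured members (rows, grouped by role) in the 8 comparisons of groups (columns). Colour gives the log2 fold change and a dot marks genes with at least 1 feature at an adjusted p under 0.05. The TG over WT column at 80 dpi shows the synthesis enzymes above 0 and Abca1, Abcg1 and Apoe below 0, and the column of TG mice at 80 dpi over naive has no dot.

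Whether the TG over WT difference itself changed with time was tested as an interaction. From naive mice to 80 dpi it shifted upward for 5 members and downward, to more negative values, for 2, against 0.576% of all genes in either direction. From 17 to 80 dpi it shifted upward for 11 members, against 2.81% of all genes in either direction (411 genes upward and 127 downward of 19087). From naive mice to 17 dpi it shifted downward, to more negative values, for 5 members. Of all genes 11.0% shifted in either direction (576 genes upward and 1539 downward).

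Marker genes of several cell types moved in the same comparisons. In TG over WT 7.17% of all genes were higher and 14.0% lower at 17 dpi, and 0.388% and 2.32% at 80 dpi. In WT mice over naive 14.0% of all genes were higher at 17 dpi and 1.73% at 80 dpi. The marker counts at 17 dpi thus stand against a high background. In TG over WT, 15 of the 17 measured markers of macrophages and microglia were lower at 17 dpi and 13 at 80 dpi, with medians of -1.55 and -1.17. Compared with naive WT mice, 14 were higher in WT mice at 17 dpi and 10 at 80 dpi. Among the 14, Ptprc also passed as lower on another feature. Of 14 neuron markers, 6 were higher in TG mice at 17 dpi and 4 at 80 dpi. Of 19 myelin and oligodendrocyte markers 5 were higher at 17 dpi and 1 at 80 dpi. Among the 5, Mbp also passed as lower on another feature. Of 8 T cell markers 7 were lower and 1 higher at 17 dpi and none passed at 80 dpi, and of 5 red blood cell markers 4 were higher at 17 dpi and 1 at 80 dpi. The astrocyte genes Gfap and Aqp4 were lower at 80 dpi, 2 of 11 astrocyte markers, and at 17 dpi S100b was higher and Slc1a2 lower. Skeletal muscle genes had medians of 0.15, 1.41, -0.19 and 1.41 on the 4 arrays at 80 dpi, listed in the order TG 26 and WT 13, TG 21 and WT 15, TG 26 and WT 15, TG 27 and WT 14, which is the order used for all 80 dpi values below. Their part in the results on the members was not tested.

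**Figure D2:**
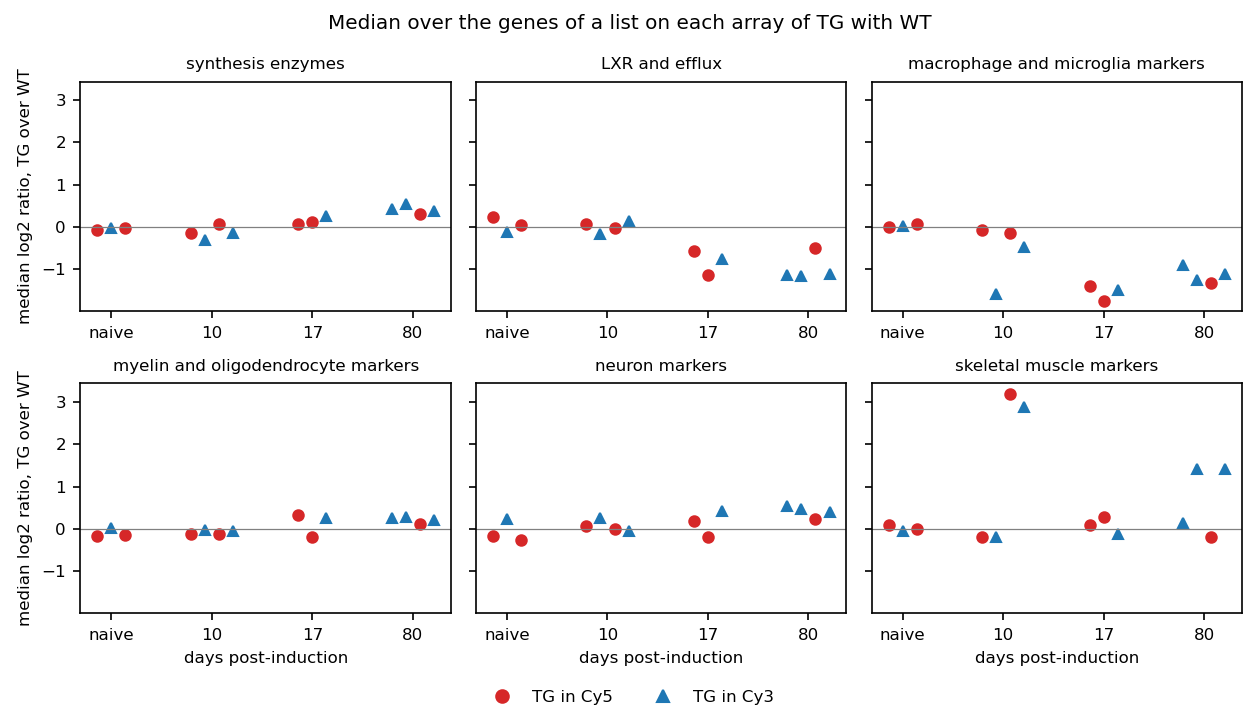
Median log2 ratio of each gene list on each of the 14 arrays that pair a TG with a WT animal, grouped by time. On the 4 arrays at 80 dpi the synthesis enzymes lay between 0.31 and 0.54 and the macrophage and microglia markers between -1.32 and -0.89.

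The enzymes of cholesterol synthesis were higher in TG than in WT cord at 80 dpi. All 17 measured enzymes had a positive mean log2 fold change, from 0.12 to 1.16 with a median of 0.38, whereas the median over all genes was 0.0053. Of these 17 enzymes 12 passed the test, spanning the pathway from Hmgcs1 near its start to Dhcr7 at its end, and 5 did not (Pmvk, Mvd, Hsd17b7, Ebp and Sc5d). The 4 arrays gave medians over the enzymes of 0.43, 0.54, 0.31 and 0.37. In naive mice the 3 arrays gave -0.068, -0.012 and -0.02.

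Hmgcs1, which joins acetyl-CoA and acetoacetyl-CoA into the precursor of mevalonate, had log2 ratios of TG over WT of 1.11, 0.96, 1.09 and 0.77 at 80 dpi on feature 16073. The same feature gave 0.12, 0.18 and 0.13 at 17 dpi, 0.22, -0.62 and 0.046 in naive mice, and -0.85 to 0.43 at 10 dpi. The 80 dpi arrays lay above every array of the other times. The fitted log2 fold change was 1.15 ± 0.15 (SE; 3 TG and 3 WT animals on 4 arrays), or 2.22-fold, with an adjusted p of 0.000476 in limma. Its other feature gave 1.16 ± 0.36 with an adjusted p of 0.167, and its ratios in naive mice ranged more widely, from -1.12 to 1.98.

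Fdps, the synthase of farnesyl diphosphate, had ratios of 1.08, 1.03, 0.72 and 0.9 at 80 dpi on feature 10075. At 17 dpi it gave 0.48, 0.036 and 0.59, below every 80 dpi array. Its fold change at 80 dpi was 1.97 (log2 0.98 ± 0.12, adjusted p = 0.00025 in limma). The other Fdps feature did not pass, at a log2 value of 0.2 and an adjusted p of 0.917, so the result rests on 1 of its 2 features.

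Nsdhl, a dehydrogenase that helps to strip methyl groups from the sterol ring, was measured by 4 features. Feature 15485 had ratios of 0.77, 0.73, 0.77 and 0.66 at 80 dpi, against 0.24, -0.47 and 0.18 at 17 dpi and -0.21, 0.095 and -0.073 in naive mice. The 80 dpi arrays were tight and did not overlap with the other times. The fits gave log2 0.71 ± 0.1 with an adjusted p of 0.00158 on this feature and 0.48 ± 0.056 with an adjusted p of 0.000228 on a second, while the remaining pair gave 0.77 and 0.41 with adjusted p of 0.0551 and 0.145 in limma.

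Sqle, the squalene epoxidase, had 1 feature, with ratios of 0.61, 0.62, 0.58 and 0.51 at 80 dpi and 0.082, -0.62 and 0.077 at 17 dpi. Its log2 fold change at 80 dpi was 0.56 ± 0.084 (adjusted p = 0.00207 in limma). Every 80 dpi array lay above every array of the other times. Idi1, the isomerase that makes the activated isoprene unit for chain growth, differed between its features. Feature 28201 gave 1.55, 1.2, 0.66 and 1.08 at 80 dpi, with a fitted 1.05 ± 0.14 and an adjusted p of 0.000609. Feature 11386 gave 0.48, 0.75, -0.13 and 0.65, with a fitted 0.39 ± 0.19 and an adjusted p of 0.717. Both features were thus lowest on the array of TG 26 and WT 15, the only one of the 4 with TG in Cy5.

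Msmo1, the methylsterol oxidase that acts before Nsdhl, gave 0.52, 0.56, 0.71 and 0.5 at 80 dpi on feature 41248 (log2 fold change 0.64 ± 0.097, adjusted p = 0.00231 in limma). Its other feature gave 0.35, 0.29, -0.078 and 0.14 and did not pass, with a fitted 0.12 and an adjusted p of 1. Lss, which closes squalene epoxide into lanosterol, gave 1.02, 0.93, 0.19 and 0.8 on feature 26933, with a fitted 0.57 ± 0.091 and an adjusted p of 0.00303. Here too the array with TG in Cy5 was the lowest, and 17 dpi overlapped with 80 dpi through a value of 0.79. With the fitted dye effect removed that value was 0.49, just below the 0.5 to 0.71 of the 80 dpi arrays. The other Lss features gave fitted values of 0.4 and 0.034 and did not pass.

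The remaining enzymes that passed at 80 dpi had fitted log2 fold changes, on the features that passed, from 0.25 for the sterol reductase Tm7sf2 to 0.99 for the lanosterol demethylase Cyp51. Mevalonate kinase, Mvk, passed on both its features (0.42 and 0.49), Cyp51 on 2 of 3 (0.55 and 0.99), and the squalene synthase Fdft1 on 1 of 2 (0.6 against 0.11). Dhcr7, the reductase of the last step, gave 0.45 ± 0.093 with an adjusted p of 0.0214 in limma. Of the 5 enzymes that did not pass, Hsd17b7 and Sc5d came nearest, with adjusted p of 0.053 and 0.0527, and Ebp was the lowest at 0.12 ± 0.092.

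**Figure D3:**
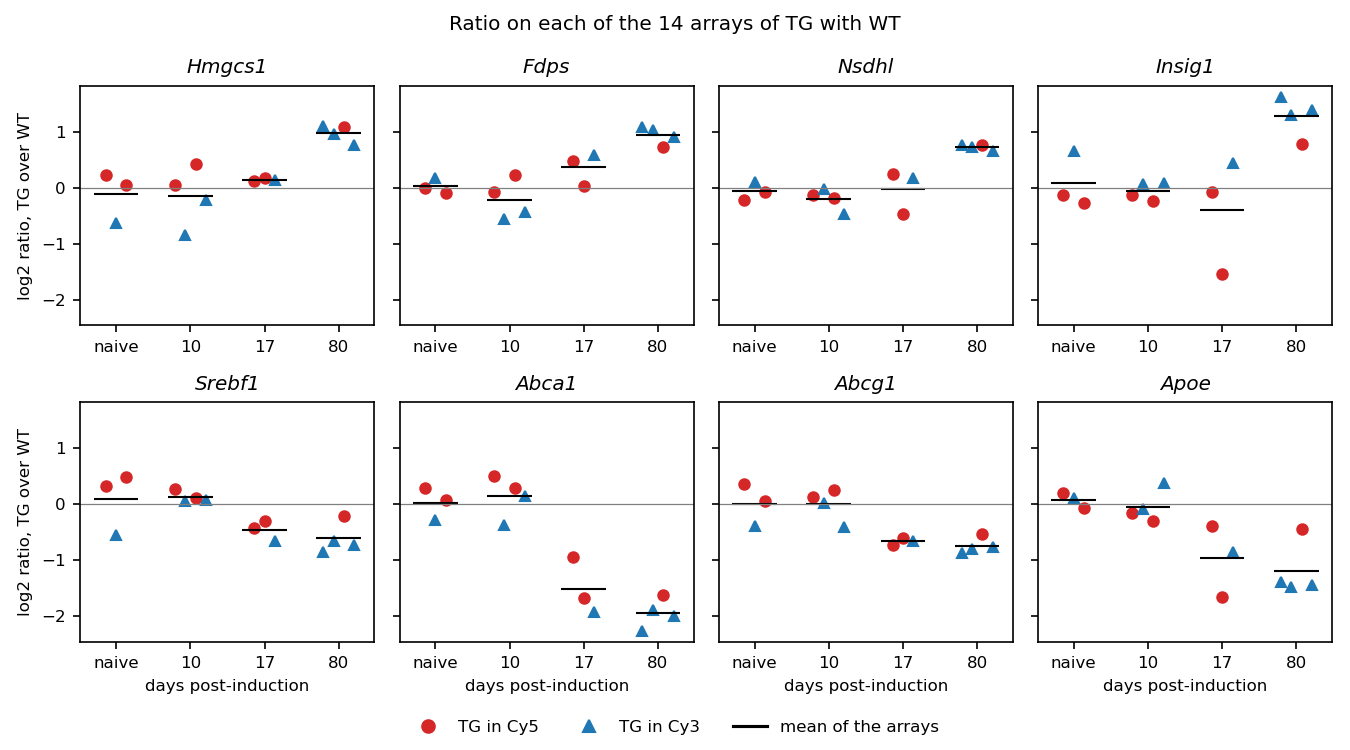
Log2 ratio of TG over WT on each of the 14 arrays for 8 members, by time, with the line at the mean of the arrays of that time. Red circles are arrays with TG in Cy5 and blue triangles arrays with TG in Cy3. Hmgcs1, Fdps and Nsdhl lie highest at 80 dpi and Abca1 and Abcg1 lie below 0 on every array at 17 and 80 dpi.

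These counts depended on single animals. Of the 20 members that passed in TG over WT at 80 dpi, 9 passed without TG animal 26 or without WT animal 15, which share 1 of the 4 arrays and sit on 2 each, 11 without WT animal 13 and 12 without TG animal 21. Hmgcs1, Idi1, Fdps, Nsdhl, Abca1, Abcg1, Apoe and Stard4 passed in each of the 23 fits that left out 1 animal. Without TG animals 21, 27 and 1-5, whose arrays carry high muscle genes, most of the 20 calls were lost. The median of the synthesis enzymes was then 0.37 with 17 of 17 above 0. TG animal 26 was the only TG animal of 80 dpi left in that fit.

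Sequence before the transcription start was set beside these values for the genes that moved together. RefSeq promoter windows on GRCm38.p6, of 250 bases before to 50 after the start, were at hand for 29 of the 35 listed genes. They were missing for Fdps, Fdft1, Sqle, Abcg1, Npc1 and Stard4. Each window was searched on both strands for the CCAAT box bound by NF-Y, the GC box GGGCGG bound by Sp1, the sterol response element TCACNCCAC bound by SREBP, and the LXR direct repeat, 2 copies of AGGTCA in the same orientation with 4 bases between them. The 250 bases before the start are shown for 6 genes of synthesis or its regulation with the smallest adjusted p at 80 dpi among those with a window, 5′ to 3′ on the gene's strand, to let their boxes be compared. Capitals mark CCAAT boxes, written ATTGG where they lie on the other strand, and the sterol response element. They are Nsdhl at chrX:72918271-72918520 (plus strand), Hmgcs1 at chr13:119690101-119690350 (plus), Idi1 at chr13:8885356-8885605 (plus), Insig1 at chr5:28071162-28071411 (plus), Msmo1 at chr8:64733579-64733828 (minus) and Lss at chr10:76531355-76531604 (plus).
Nsdhl: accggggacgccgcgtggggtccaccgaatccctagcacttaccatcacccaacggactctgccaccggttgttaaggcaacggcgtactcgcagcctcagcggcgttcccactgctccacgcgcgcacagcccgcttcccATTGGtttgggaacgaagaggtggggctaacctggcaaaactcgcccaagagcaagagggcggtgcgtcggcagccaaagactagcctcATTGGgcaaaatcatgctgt
Hmgcs1: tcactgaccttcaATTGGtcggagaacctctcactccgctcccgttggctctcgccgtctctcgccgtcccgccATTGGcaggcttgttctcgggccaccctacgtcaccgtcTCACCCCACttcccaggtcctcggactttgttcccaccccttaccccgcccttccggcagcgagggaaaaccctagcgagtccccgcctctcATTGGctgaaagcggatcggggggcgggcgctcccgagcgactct
Idi1: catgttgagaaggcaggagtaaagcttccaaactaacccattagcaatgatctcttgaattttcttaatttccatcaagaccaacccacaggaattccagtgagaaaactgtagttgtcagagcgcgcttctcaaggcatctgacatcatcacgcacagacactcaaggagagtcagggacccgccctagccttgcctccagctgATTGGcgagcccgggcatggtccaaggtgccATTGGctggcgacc
Insig1: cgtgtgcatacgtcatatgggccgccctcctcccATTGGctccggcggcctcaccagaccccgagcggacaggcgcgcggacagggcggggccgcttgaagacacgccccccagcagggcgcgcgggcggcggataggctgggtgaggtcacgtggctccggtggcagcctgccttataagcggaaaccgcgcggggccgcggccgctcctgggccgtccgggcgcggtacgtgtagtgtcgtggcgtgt
Msmo1: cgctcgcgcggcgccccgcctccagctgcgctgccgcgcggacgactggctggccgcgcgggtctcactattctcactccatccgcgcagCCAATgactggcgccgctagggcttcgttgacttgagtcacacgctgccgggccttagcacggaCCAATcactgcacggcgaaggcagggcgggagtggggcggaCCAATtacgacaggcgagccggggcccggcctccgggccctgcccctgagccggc
Lss: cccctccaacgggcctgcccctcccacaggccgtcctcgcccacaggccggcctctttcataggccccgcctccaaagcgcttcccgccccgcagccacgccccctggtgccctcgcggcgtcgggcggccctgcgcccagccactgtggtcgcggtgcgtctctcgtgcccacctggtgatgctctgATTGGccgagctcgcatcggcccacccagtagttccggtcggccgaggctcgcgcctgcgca

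Of the 15 synthesis enzymes with a window, 14 held a CCAAT box and 14 a GC box, which is 93.3% of these genes. Over all 27025 genes of the table the shares were 41.1% and 38.2%. The CCAAT box was also found in 4 of 5 SREBP regulators and in 0 of 4 genes of the LXR and efflux group, and the GC box in all 5 regulators and, of the efflux group, in Abca1. These 4 genes were Abca1, Apoe, Nr1h2 and Nr1h3, so Abcg1 was not searched and Nr1h2 has no expression value here. The sterol response element with these letters lay in the window of Hmgcs1 and of no other member, against 1.24% of all windows. The exact LXR direct repeat lay in no member's window, against 0.0152% of all windows. A match is a description of the letters and not a site of binding.

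**Figure D4:**
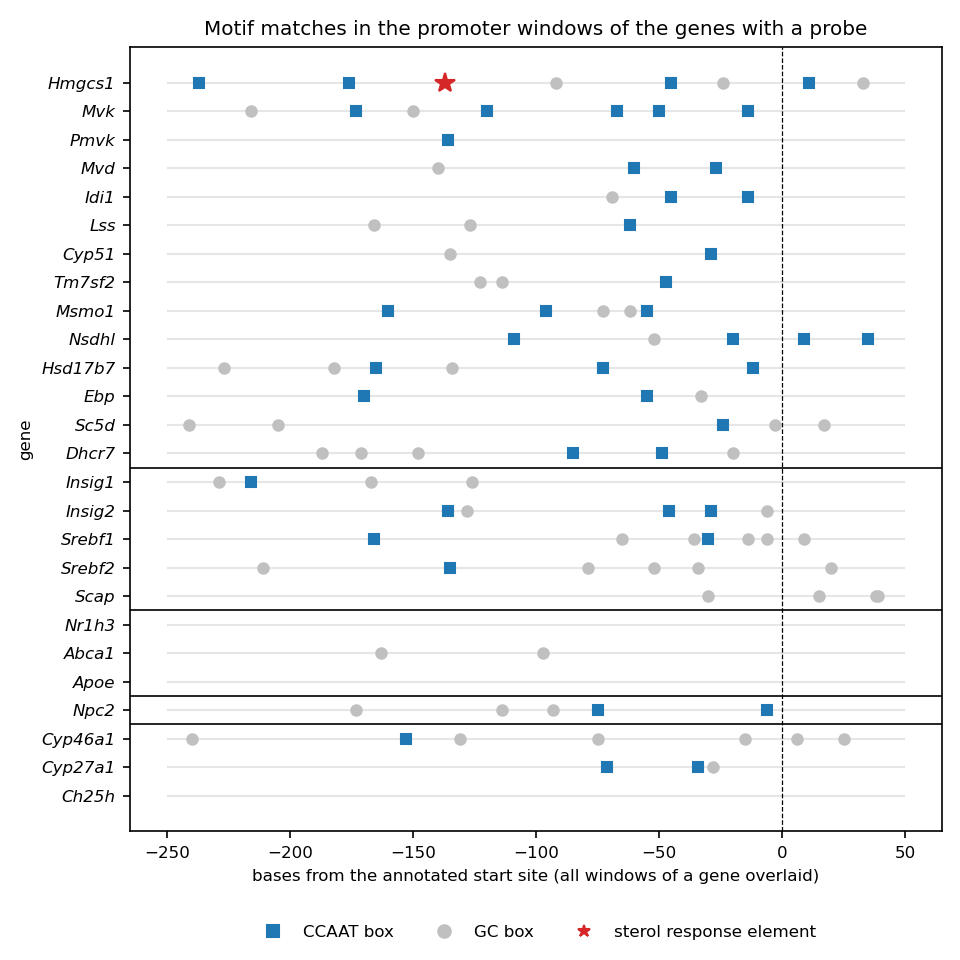
Position of each motif from 250 bases before to 50 bases after the transcription start in the windows of the members with a feature and a window, with symbols for the CCAAT box, the GC box and the sterol response element. CCAAT boxes are seen in most synthesis genes and in none of the LXR and efflux genes.

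Set against naive mice, the enzymes were lower in WT cord at 80 dpi and near the naive level in TG cord. In WT mice all 17 enzymes had a negative log2 fold change at 80 dpi over naive, with a median of -0.27, and 3 passed. Fdps fell by 1.02 ± 0.17 on the log2 scale (adjusted p = 0.00589 in limma), Hmgcs1 fell by 1.03 ± 0.21 (adjusted p = 0.026), and Nsdhl fell by 0.91 ± 0.15 on feature 15485 (adjusted p = 0.00653) and by 0.53 ± 0.082 on feature 20763 (adjusted p = 0.00335). The 1 array that pairs WT animals of these groups gave -0.88 for Fdps, -0.86 for Hmgcs1 and -0.81 for Nsdhl, and its median over the enzymes was -0.29. In TG mice the same comparison had a median of 0.048 with 13 enzymes above 0 and 4 below. Hmgcs1 was at 0.26 ± 0.21 and Fdps at -0.07 ± 0.17 there, both with an adjusted p of 1, and the 1 direct array had a median of 0.00032 over the enzymes. Without TG animals 21, 27 and 1-5 the WT values were -1.19 for Fdps, -1.13 for Hmgcs1 and -0.89 and -0.6 for Nsdhl, and none passed (adjusted p from 0.129 to 0.451). An adjusted p of 1 does not show that the TG level equalled the naive level. The 6 members called in WT mice became 1 without WT 80 dpi animal 14 or WT naive animal 4, 2 without WT 17 dpi animal 1, WT 80 dpi animal 13 or WT naive animal 2, 3 without TG 80 dpi animal 27 or TG naive animal 5 or 8, 13 without TG 17 dpi animal 3 and 14 without WT 17 dpi animal 4.

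The interaction tested directly whether the TG over WT difference differed between 80 dpi and naive mice. It passed for Hmgcs1 (log2 difference 1.29, adjusted p = 0.00904 in limma), Idi1 (1.05, adjusted p = 0.0265), Fdps (0.95, adjusted p = 0.0158), Msmo1 (0.75, adjusted p = 0.0263) and Nsdhl (0.86 and 0.57 on 2 features, adjusted p = 0.0158 and 0.00348). Between 80 and 17 dpi it passed for 8 enzymes, Hmgcs1 (1.21), Cyp51 (1.22), Idi1 (0.97), Msmo1 (0.82), Sqle (0.71), Fdps (0.68), Nsdhl (0.63 and 0.52) and Ebp (0.58), with adjusted p from 0.00526 to 0.0497. Both interactions depended on the animals in the fit. The counts for 80 dpi against naive fell to 1 member without TG naive animal 5 or 8, and those for 80 against 17 dpi to 0 without TG 17 dpi animal 1, TG 80 dpi animal 21 or 26, or WT 80 dpi animal 13. None of these interactions passed without TG animals 21, 27 and 1-5, with adjusted p from 0.557 to 1 and values of the same sign.

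**Figure D5:**
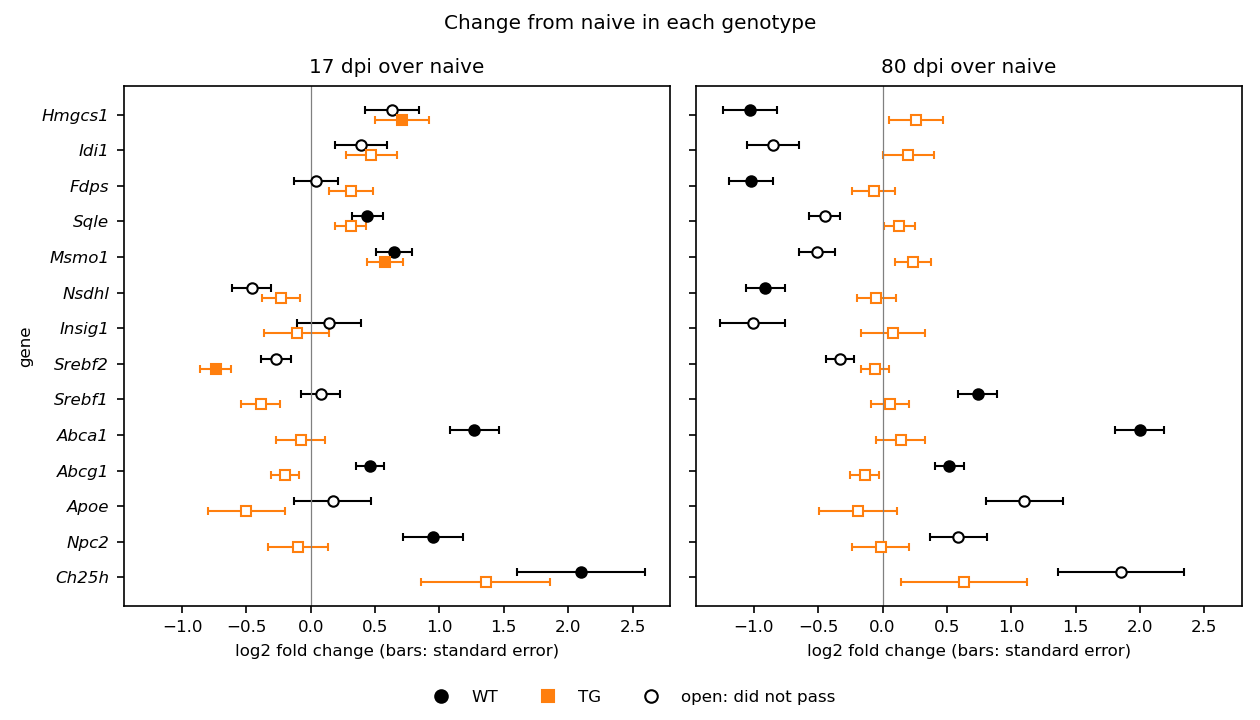
Log2 fold change over naive at 17 dpi and 80 dpi for 14 members in WT mice (black circles) and TG mice (orange squares), with bars of 1 standard error; open symbols did not pass an adjusted p of 0.05. At 80 dpi the WT values of Hmgcs1, Fdps and Nsdhl lie below 0 and that of Abca1 at 2.0, while every TG symbol is open.

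At 17 dpi the enzymes did not move as a block. In TG over WT 4 were higher (Mvk, Fdft1, Cyp51 and Sc5d) and Ebp was lower, and the median was 0.054, near that of all genes at 0.037. Ebp, the isomerase of the late pathway, had ratios of -0.78, -0.25 and -0.23 on the arrays of TG 7 and WT 1, TG 3 and WT 4, and TG 7 and WT 4, with a fitted -0.47 ± 0.1 and an adjusted p of 0.00855 in limma. All 3 arrays were below 0, and Ebp was among the enzymes higher over naive at 17 dpi in both genotypes. Its log2 fold change over naive was 0.98 ± 0.14 in WT mice (adjusted p = 0.00024) and 0.48 ± 0.13 in TG mice (adjusted p = 0.0263). The call of Fdft1, at 0.78 ± 0.22, came with ratios of 0.2, 2.01 and 0.49, the highest from the array that stands apart. Without that array Fdft1 was at 0.31 and still passed, as did Mvk, Cyp51 and Ebp, whereas Sc5d did not (adjusted p = 0.0827). None of these 5 enzymes passed without TG animals 21, 27 and 1-5, with values from -0.47 to 0.82 and adjusted p from 0.0965 to 0.191. The 11 members called at 17 dpi became 5 without WT 17 dpi animal 4, 7 without TG 17 dpi animal 3, TG 80 dpi animal 21 or 27, TG naive animal 8 or WT naive animal 2, and 17 without WT 17 dpi animal 1.

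Over naive, WT mice at 17 dpi also had higher Msmo1 (log2 0.65 ± 0.14, adjusted p = 0.00594 in limma) and Sqle (0.44 ± 0.12, adjusted p = 0.0234) and lower Mvk (-0.45 ± 0.13, adjusted p = 0.0316) and Dhcr7 (-0.44 ± 0.084, adjusted p = 0.00254). TG mice at 17 dpi had higher Hmgcs1 (0.71 ± 0.21, adjusted p = 0.0342) and Msmo1 (0.58 ± 0.14, adjusted p = 0.0139) and lower Dhcr7 (-0.35 ± 0.084, adjusted p = 0.0112). In WT mice Hmgcs1 was at 0.63 ± 0.21 with an adjusted p of 0.0576. The count of 9 members called in WT mice fell to 2 without WT naive animal 2 and to 3 without WT 17 dpi animal 1, and rose to 15 without WT 17 dpi animal 4 and to 16 without TG 17 dpi animal 3. Without TG animals 21, 27 and 1-5, Ebp, Mvk and Dhcr7 passed in WT mice, while Msmo1 (adjusted p = 0.0505) and Sqle (0.117) did not, nor did any of the enzymes in TG mice (0.0748 to 0.194). The count of 7 in TG mice fell to 0 without TG 17 dpi animal 1 or TG naive animal 5, the pair on the only direct array. In naive mice the enzymes had a median TG over WT log2 value of 0.012 with 10 above 0, and at 10 dpi of -0.12 with 3 above 0.

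The SREBP regulators moved in opposite directions at 80 dpi. Insig1, a target of SREBP that retains Scap, had ratios of TG over WT of 1.62, 1.3, 0.78 and 1.39, all above its highest value at the other times (0.65). Its log2 fold change was 1.15 ± 0.17 (2.22-fold, adjusted p = 0.00203 in limma) on feature 29702, while its other feature gave 0.31 with an adjusted p of 0.584. At 17 dpi the same feature gave -0.076, -1.53 and 0.44, which spread on both sides of 0. Over naive at 80 dpi Insig1 was at -1.01 ± 0.25 in WT mice (adjusted p = 0.0752) and at 0.083 ± 0.25 in TG mice (adjusted p = 1).

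Srebf1, which encodes the SREBP best known for fatty acid genes and is itself an LXR target, was lower in TG mice. Its ratios were -0.86, -0.66, -0.21 and -0.73 at 80 dpi, -0.43, -0.3 and -0.67 at 17 dpi, and 0.32, -0.56 and 0.48 in naive mice. All 7 arrays of 17 and 80 dpi were below 0, though 1 naive array overlapped with them. The fits gave -0.63 ± 0.1 at 80 dpi (adjusted p = 0.00326 in limma) and -0.42 ± 0.11 at 17 dpi (adjusted p = 0.0255; 0.0608 without the array that stands apart). In WT mice Srebf1 was higher at 80 dpi than in naive mice, at 0.74 ± 0.15 (adjusted p = 0.0203), and its direct array gave 0.82. Srebf1 without TG animals 21, 27 and 1-5 passed at 17 dpi in TG over WT (-0.56, adjusted p = 0.0265), but not at 80 dpi (-0.53, 0.524) or in WT mice over naive (1.05, 0.0591).

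Srebf2, the SREBP best known for cholesterol synthesis, had 4 features. Feature 1827 had ratios of 0.35, 0.046, 0.53 and 0.13 at 80 dpi, with a fitted 0.41 ± 0.12 and an adjusted p of 0.148. Feature 23660 had 0.44, 0.23, 0.5 and 0.33 at 80 dpi and -0.11, -0.47 and -0.18 at 17 dpi. It passed in both directions, higher at 80 dpi (0.42 ± 0.078, adjusted p = 0.00999 in limma) and lower at 17 dpi (-0.32 ± 0.088, adjusted p = 0.0298; 0.122 without the array that stands apart). The difference between these times was 0.74 (adjusted p = 0.00466). At 17 dpi the other features gave 0.16, -0.083 and 0.37 and did not pass, so the lower value rests on 1 of 4 features, and with the features averaged Srebf2 was at 0.035 at 17 dpi. The remaining features gave 0.32 and -0.013 at 80 dpi and did not pass. Neither Srebf2 call nor that of Insig1 passed without TG animals 21, 27 and 1-5 (adjusted p from 0.175 to 0.892). In TG mice at 17 dpi Srebf2 (-0.74 ± 0.12, adjusted p = 0.00128) and Scap (-0.32 ± 0.099, adjusted p = 0.0393) were lower than in naive TG mice, and without these 3 animals Srebf2 passed (0.0362) and Scap did not (0.11). Insig2 and Scap did not pass in TG over WT at any time.

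Abca1 and Abcg1 were lower in TG cord relative to WT at 17 and 80 dpi, Nr1h3 passed as lower at 17 dpi and Apoe at 80 dpi. Over naive, 0 of the 4 genes of the group passed in TG mice at 80 dpi, while Abca1 and Abcg1 were higher in WT mice at both times. At 17 dpi Nr1h3 passed as lower in TG mice (-0.32, against -0.033 in WT mice), where 15.3% of all genes were lower. That call was lost in 17 of the 23 fits that left out 1 animal. Apoe at 17 dpi over naive was at -0.5 in TG and 0.17 in WT mice and did not pass. Abca1, which exports cholesterol to apolipoproteins, gave ratios of -2.26, -1.9, -1.63 and -1.99 at 80 dpi and -0.94, -1.67 and -1.92 at 17 dpi. Naive arrays gave 0.28, -0.29 and 0.068 and 10 dpi arrays -0.38 to 0.5, with no overlap with the later times. Abca1 was 3.83-fold lower at 80 dpi (log2 -1.94 ± 0.13, adjusted p = 1.83e-06 in limma) and 2.68-fold lower at 17 dpi (log2 -1.42 ± 0.15, adjusted p = 2.72e-05). Without TG animals 21, 27 and 1-5 both passed, at -1.94 (adjusted p = 0.0228) and -1.57 (0.00252).

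In WT mice Abca1 was higher over naive at both times, 2.41-fold at 17 dpi (log2 1.27 ± 0.19, adjusted p = 0.000448 in limma) and 4-fold at 80 dpi (log2 2.0 ± 0.19, adjusted p = 5.52e-05). The direct arrays gave 1.18 and 1.62. In TG mice it was at -0.077 ± 0.19 at 17 dpi and 0.14 ± 0.19 at 80 dpi, with 95% intervals from -0.48 to 0.33 and from -0.26 to 0.54. The TG over WT difference was larger in size than in naive mice by 1.34 on the log2 scale at 17 dpi (adjusted p = 0.00097) and by 1.86 at 80 dpi (adjusted p = 0.000213). Without TG animals 21, 27 and 1-5 the WT rises passed (0.00983 and 0.0151) and so did the difference at 17 dpi (0.0181), but that at 80 dpi did not (-1.82, adjusted p = 0.202).

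Abcg1, which exports cholesterol to lipoprotein particles, gave -0.88, -0.81, -0.53 and -0.77 at 80 dpi and -0.74, -0.61 and -0.66 at 17 dpi. Naive arrays gave 0.35, -0.39 and 0.055, so that all 7 later arrays lay below them. Its log2 fold change was -0.7 ± 0.075 at 80 dpi (adjusted p = 0.000111 in limma) and -0.69 ± 0.085 at 17 dpi (adjusted p = 9.78e-05). In WT mice it was higher over naive, at 0.46 ± 0.11 at 17 dpi (adjusted p = 0.0105) and 0.52 ± 0.11 at 80 dpi (adjusted p = 0.0299). Abcg1 without TG animals 21, 27 and 1-5 passed in TG over WT at 17 dpi (adjusted p = 0.00645) but not at 80 dpi (0.169), nor in WT mice over naive (0.0597 and 0.48).

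Apoe, the main cholesterol carrier of the central nervous system, gave -1.39, -1.49, -0.45 and -1.44 at 80 dpi and -0.4, -1.66 and -0.86 at 17 dpi. The naive arrays gave 0.19, 0.096 and -0.072 and did not overlap with them. Apoe was 2.5-fold lower at 80 dpi (log2 -1.32 ± 0.21, adjusted p = 0.00259 in limma), and at 17 dpi it did not pass (-0.7 ± 0.23, adjusted p = 0.0609). The direct WT array of 80 dpi over naive gave 1.28, with a fitted 1.1 ± 0.3 and an adjusted p of 0.114. Apoe without TG animals 21, 27 and 1-5 was at -0.92 in TG over WT at 80 dpi and did not pass (0.912). Nr1h3, which encodes the LXR form common in macrophages, gave -0.092, -0.43 and -0.5 at 17 dpi (-0.31 ± 0.078, adjusted p = 0.017; 0.0638 without the array that stands apart) and -0.12, -0.2, 0.0078 and -0.12 at 80 dpi (-0.094 ± 0.07, adjusted p = 1). The medians of the macrophage and microglia markers had the same sign as Abca1 and Abcg1 in these comparisons. At 17 and 80 dpi they were -1.55 and -1.17 in TG over WT, and 2.15 and 1.35 in WT mice over naive. Apoe was only at 0.17 in WT mice at 17 dpi over naive, with a direct array at -0.29. The marker medians were further from 0 at 17 than at 80 dpi, whereas Abca1 and Apoe were further from 0 at 80 dpi. The part of these markers in the efflux gene differences was not tested.

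Of the transport genes, Npc2 was lower and Stard4 higher in TG mice. Npc2, which hands cholesterol out of late endosomes to Npc1, gave -1.07, -1.31 and -1.55 at 17 dpi and -0.84, -0.62, -0.65 and -0.63 at 80 dpi. All 7 arrays were below the naive arrays (-0.2, 0.19 and -0.23), and 1 array at 10 dpi, that of TG 1-3 and WT 10-4, was at -0.78. On that 10 dpi array the median of the macrophage and microglia markers was -1.59. The fits for Npc2 gave -1.18 ± 0.17 at 17 dpi (2.27-fold lower, adjusted p = 0.000414 in limma) and -0.74 ± 0.15 at 80 dpi (1.67-fold, adjusted p = 0.0211), and it was higher in WT mice at 17 dpi than in naive mice (0.95 ± 0.23, adjusted p = 0.00927). For Npc2 without TG animals 21, 27 and 1-5 the TG over WT value at 17 dpi passed (-1.33, adjusted p = 0.00946), and that at 80 dpi (0.932) and the WT rise (0.0512) did not.

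Stard4, a carrier of cholesterol between membranes, had 3 features. Feature 42064 gave 1.51, 1.34, 0.55 and 1.02 at 80 dpi, with a fitted 1.0 ± 0.14 and an adjusted p of 0.000951 in limma. Feature 42058 gave 0.56, 0.77, -0.2 and 0.72, with a fitted 0.29 ± 0.28 and an adjusted p of 1. Both were lowest on the array of TG 26 and WT 15, and naive mice overlapped with 80 dpi on feature 42064 through a value of 0.67. With the fitted dye effect removed that value was 0.46, below the 0.76 to 1.3 of the 80 dpi arrays. The third Stard4 feature gave 0.53 and did not pass, and without TG animals 21, 27 and 1-5 feature 42064 was at 1.03 with an adjusted p of 0.433. Npc1, the endosomal membrane transporter, did not pass on either feature, and its 80 dpi values of -0.21 and 0.97 differed in sign.

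The oxysterol enzymes did not pass in TG over WT at any time. Ch25h, the cholesterol hydroxylase induced in activated macrophages, gave -1.16, -0.65, -0.91 and -1.05 at 80 dpi and -0.22, -0.63 and 1.12 at 17 dpi. All 4 arrays at 80 dpi were below 0, but the fitted -0.85 ± 0.34 had an adjusted p of 0.44. In WT mice Ch25h was 4.29-fold higher at 17 dpi than in naive mice (log2 2.1 ± 0.5, adjusted p = 0.00928 in limma). That call rests on the array of WT 17 dpi animal 1 and WT naive animal 2 (3.4), since leaving out single animals moved the value between 0.4 and 2.8 and it no longer passed without either of these, nor without TG animals 21, 27 and 1-5 (adjusted p = 0.0578). Cyp46a1, the cholesterol hydroxylase of neurons, gave -0.15, -0.18, 0.21 and -0.2 at 80 dpi and 0.089, 0.82 and -0.34 at 17 dpi, on both sides of 0, and was at 0.015 ± 0.11 at 80 dpi. Cyp27a1, which hydroxylates the side chain in mitochondria, was at -0.002 ± 0.074.

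A wider list of 39 genes of sterol handling, of which 37 were measured, was mostly lower in TG mice where it moved. At 80 dpi 5 of the 37 were lower and none higher: lipoprotein lipase Lpl (-0.71), the apolipoproteins Apoc1 (-0.89) and Clu (-0.67), the LXR-induced ubiquitin ligase of lipoprotein receptors Mylip (-0.46) and the oxysterol hydroxylase Cyp7b1 (-0.45), with adjusted p from 2.2e-05 to 0.0287 in limma. Of all genes 2.32% were lower and 0.388% higher. The median of the list was -0.037. Lpl (0.92), Apoc1 (0.81) and Mylip (0.44) were the 3 genes of the list that were higher in WT mice at 80 dpi than in naive mice. Of all genes 1.73% were higher in that comparison. At 17 dpi 13 were lower, among them the lysosomal membrane protein Scarb2 (-1.4 and -1.49), and 2 higher in TG over WT, with Gramd1b passing in both directions on different features (0.3 and -0.28). These 17 dpi counts stand against 14.0% of all genes lower and 7.17% higher. Over naive at 17 dpi, 10 were higher and 3 lower in WT mice (14.0% and 12.4% of all genes), with Cyp7b1 at 1.46 and Abca2, a transporter abundant in oligodendrocytes, at -0.99, and 4 were higher and 7 lower in TG mice (10.2% and 15.3% of all genes, near the share in the list), with Cyp7b1 at 0.96 and Abca2 at -0.8.

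Of 20 genes of fatty acid synthesis, 2 were higher in TG than in WT mice at 80 dpi and none lower, with a median of 0.14. Of all genes 0.388% were higher and 2.32% lower. The 2 higher genes were the enzymes that supply acetyl-CoA to both pathways, Acly (0.38, adjusted p = 0.0113 in limma) and Acss2 (0.34, adjusted p = 0.0044). At 17 dpi 2 were higher and 4 lower, near the 7.17% and 14.0% of all genes. Over naive at 17 dpi 4 of the 20 were lower in each genotype, against 12.4% of all genes in WT and 15.3% in TG mice. The desaturase genes Fads1 (-0.86 in WT and -0.6 in TG mice) and Fads2 (-0.46 and -0.47) and the phosphatidate phosphatase Lpin1 were lower in both. In WT mice Acss2 (0.32) and Me1 (0.44) were higher, against 14.0% of all genes. At 80 dpi over naive 0 of the 20 genes passed in either genotype.

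Outside these lists, the genes whose ratios over the 20 arrays were most like the mean profile of the synthesis enzymes were Hsph1 (Pearson r = 0.775), Chchd4 (0.772), Agtpbp1 (0.75), Elovl4 (0.745) and Mtmr4 (0.736), of 18833 genes compared. The 20 arrays share animals and dyes and are not independent, and the values only describe these arrays. In TG over WT at 80 dpi the fitted log2 values of Hsph1 and Elovl4 were 0.46 and 0.4, and in WT mice at 80 dpi over naive -0.6 and -0.53.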

How the data were processed

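The values analysed were log2 ratios of 2 animals on each of 20 arrays, as deposited by the authors, and the log base is inferred since the file does not state it. Per the labels' design text, the authors used limma for global loess normalisation inside every array, followed by quantile normalisation among arrays. No source used here names the scanner, a background correction or a filter on dim features. Features were named through the platform annotation, of which 32042 fitted features had 1 gene symbol.

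Each feature with values on at least 50% of arrays was fitted by generalised least squares over all 20 arrays, with code written in R 4.3.3. The variances were then moderated with limma 3.58.1, and p-values given as limma's come from this moderated test. The model held group coefficients and 1 dye term, and arrays sharing an animal were allowed 1 common correlation, estimated at 0.008. Moderated tests were two-sided, with 13 residual and 1.92 prior degrees of freedom. P-values were adjusted by Benjamini and Hochberg's method over all features of a comparison. They rest on the spread of the arrays around the fit, pooled over all groups. With a correlation of 0.008, arrays that share an animal counted as nearly independent. The p-values therefore do not measure the spread between animals alone. The number of arrays limits the precision. The code was tested on simulated data.

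The members, the lists and the tests were chosen with earlier results of these data known. Array values are given for up to 14 members with the smallest adjusted p in TG over WT and for 10 members listed by name. Unless stated otherwise, the dye effect was not removed from them. The feature given is the one with values on most arrays, or the first ID at a tie, with the other features named where they differ. Of the wider lists, up to 5 genes in each direction are named, and 5 genes outside the lists by likeness of profile. Alternatives changed the reading of the ratios, the dye term, the correlation, the scaling, the weights, the averaging of features, and the arrays and animals included.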

Additional observations from a re-analysis of the deposited data

Results flagged for a closer look

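The TG over WT difference itself changed between times for a number of members, by limma's moderated test of the interaction, with values on the log2 scale. Between naive mice and 17 dpi it moved by -1.34 for Abca1 (adjusted p = 0.00097), -0.65 for Abcg1 (0.00298), -1.05 for Npc2 (0.013), -0.5 for Ebp (0.0394) and -0.47 for Srebf2 (0.0271). Between naive mice and 80 dpi it moved by -1.86 for Abca1 (0.000213) and -0.66 for Abcg1 (0.00941). Over the same interval it moved by 1.29 for Hmgcs1 (0.00904), 1.05 for Idi1 (0.0265), 0.95 for Fdps (0.0158), 0.75 for Msmo1 (0.0263), and 0.86 (0.0158) and 0.57 (0.00348) for the 2 features of Nsdhl.

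Between 17 and 80 dpi it moved upward for 11 members. The values were 1.21 for Hmgcs1 (adjusted p = 0.00916), 0.97 for Idi1 (0.0212), 0.68 for Fdps (0.0497), 0.71 for Sqle (0.00851), 1.22 for Cyp51 (0.0394), 0.82 for Msmo1 (0.00851), 0.63 (0.0444) and 0.52 (0.00526) for the features of Nsdhl, and 0.58 for Ebp (0.0362). Outside the synthesis enzymes they were 1.35 for Insig1 (0.0135), 0.74 for Srebf2 (0.00466) and 0.94 for Stard4 (0.0248).

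In 6 of 66 sets of 4 arrays, over 33 features, 1 array lay far from the other 3 by Dixon's test. Chance gives this in about 1 of 20 sets where the 4 arrays are alike. The ratios tested still held the dye effect, which sets apart an array with the other dye order, so that share is no yardstick here. The array of TG 26 and WT 15 at 80 dpi, the only one of its time with TG in Cy5, was the distant one in 4 of them. It gave -0.048 for an Nsdhl feature (others 1.31 to 1.49), -0.32 for a Srebf2 feature (others 0.83 to 0.94), -0.45 for Apoe (others -1.49 to -1.39) and 0.21 for Cyp46a1 (others -0.2 to -0.15). With the fitted dye effect removed it gave 0.46 for the Nsdhl feature (others 0.8 to 0.98) and 0.15 for the Srebf2 feature (others 0.35 to 0.47). Apoe was then at -0.43 (others -1.51 to -1.41) and Cyp46a1 at 0.058 (others -0.044 to 0.0072). The array of TG 21 and WT 15 gave 0.86 for a Stard4 feature (others 0.23 to 0.33), and that of TG 26 and WT 13 gave -0.84 for Npc2 (others -0.65 to -0.62).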

How the results depend on the processing

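Of 82 results on single features, 0 kept their call and 59 reversed when every array was read in title order. No result reversed when an animal was left out, and 1 (Srebf2 at 17 dpi) reversed under another setting. In title order the members called in TG over WT numbered 3 in naive mice, 0 at 17 dpi and 10 at 80 dpi, and 0 in WT at 17 or 80 dpi over naive, in TG at 17 dpi over naive and in each of the 3 interactions.

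In title order the TG over WT log2 values at 17 dpi were -0.28 for Mvk, -0.25 for Cyp51, 0.1 for Srebf1 and 0.35 for Abca1. With features averaged per gene Srebf2 was at 0.035. At 80 dpi they were -0.14 for Hmgcs1, -0.29 and -0.1 for Mvk, -0.66 for Idi1, -0.46 for Fdps, -0.72 for Fdft1, -0.21 for Sqle, -0.62 for Lss, -0.57 and -0.49 for Cyp51, -0.34 for Tm7sf2, -0.086 for Msmo1 and -0.33 and -0.19 for Nsdhl. The rest at 80 dpi were -0.8 for Insig1, 0.52 for Srebf1, -0.015 for Srebf2, 1.01 for Abca1, 0.44 for Abcg1, 0.73 for Apoe, -0.7 for Stard4 and 0.38 for Npc2. In WT mice at 17 dpi over naive they were 0.29 for Mvk, -0.075 for Ebp, 0.33 for Dhcr7, -1.01 for Abca1, -0.16 for Abcg1, -0.23 for Npc2 and -1.39 for Ch25h. In WT mice at 80 dpi over naive they were 0.31 for Hmgcs1, 0.3 for Fdps, 0.51 and 0.26 for Nsdhl, -0.16 for Srebf1, -1.01 for Abca1 and -0.33 for Abcg1, and in TG mice at 17 dpi -0.023 for Ebp and 0.0054 for Dhcr7. The interactions gave 0.053 for Ebp, 0.57 for Abca1 and 0.24 for Npc2 (17 dpi against naive), -0.33 for Hmgcs1, -0.41 for Idi1, -0.45 for Fdps, -0.16 for Msmo1, -0.38 and -0.21 for Nsdhl, 1.22 for Abca1 and 0.32 for Abcg1 (80 dpi against naive), and -0.2 for Idi1, -0.2 for Fdps, -0.0018 for Sqle, -0.0077 for Nsdhl, -0.012 for Ebp and -0.35 for Stard4 (80 against 17 dpi).

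Members called in TG over WT at 17 dpi, 11 as reported, numbered 6 with no dye term, 7 with features averaged per gene, 5 with arrays scaled to one spread, 5 from the 14 TG and WT arrays alone, 0 from the arrays of that time alone, 5 without TG animals 21, 27 and 1-5, and 7 without the array of TG 3 and WT 4. At 80 dpi the 20 members became 7 from the 14 arrays alone and 1 without the 3 TG animals. With array weights the counts over naive were 18 in WT at 17 dpi, 23 in WT at 80 dpi, 23 in TG at 17 dpi and 6 in TG at 80 dpi. Without the 3 TG animals the first 3 of these were 5, 1 and 1, and without the array of TG 3 and WT 4 they were 16, 13 and 11. No dye term gave 3 in WT at 80 dpi and 1 in TG at 17 dpi, and one spread gave 15 and 4. For the interactions of 17 dpi against naive, 80 dpi against naive, and 80 against 17 dpi, weights gave 17, 26 and 21, no dye term 3, 3 and 6, the 14 arrays alone 2, 1 and 0, and leaving out the 3 TG animals 2, 0 and 0. One spread gave 3 and 14 for the first 2, averaged features gave 5 for the last, and 80 dpi against naive had 15 without the array of TG 3 and WT 4. The cause of these shifts was not tested. Fewer arrays enter the fits that leave arrays or animals out. Without the 3 TG animals, TG 26 was the only TG animal of 80 dpi.

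Leaving out each of the 23 animals in turn gave 0 to 0 members in naive mice and at 10 dpi, 5 to 17 at 17 dpi (lowest without WT 17 dpi animal 4, highest without WT 17 dpi animal 1) and 9 to 22 at 80 dpi. Over naive it gave 2 to 16 in WT at 17 dpi, 1 to 14 in WT at 80 dpi (lowest without WT 80 dpi animal 14 or WT naive animal 4, highest without WT 17 dpi animal 4), 0 to 11 in TG at 17 dpi and 0 to 0 in TG at 80 dpi. In TG at 17 dpi it was 11 without TG 17 dpi animal 3, 2 without TG naive animal 8 or WT naive animal 2, 3 without TG 80 dpi animal 21 or 27 or WT naive animal 4, and 4 without TG 80 dpi animal 26, WT 17 dpi animal 1 or any WT 80 dpi animal. The interactions gave 1 to 8 (17 dpi against naive), 1 to 15 (80 dpi against naive) and 0 to 16 (80 against 17 dpi). The first was 1 without TG naive animal 5, 2 without WT naive animal 2, 8 without TG naive animal 7 or WT naive animal 3, and 3 without TG 17 dpi animal 1 or 7, TG naive animal 8, WT naive animal 4 or any animal of 80 dpi. The second was 2 without TG 80 dpi animal 21 or 27 or WT naive animal 2 or 4, 3 without TG 80 dpi animal 26 or any WT 80 dpi animal, 14 without WT 17 dpi animal 4 and 15 without TG 17 dpi animal 3. The third was 1 without WT 80 dpi animal 15, 5 without TG 80 dpi animal 27, WT 17 dpi animal 1 or WT 80 dpi animal 14, 6 without TG naive animal 5 or 8 or WT naive animal 2, and 7 without WT naive animal 4. No paired analysis was possible because animal numbers differ between the groups and array replicate numbers only follow the order of the records. Contrasts over naive have no value from the 14 arrays alone or from 1 time alone. The ratios carry no signal level, so what dim features limit is unknown.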
